A study of Mus musculus with 5 samples.

Results

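The cytoplasmic ribosomal protein genes are described here one by one in cancer cells that had colonised mouse lung. Members are genes whose symbol begins with Rpl or Rps and which the authors' gene table marks as ribosomal, without the Rps6k kinase genes. This gave 90 of 23771 genes. Of these, 46 encode core proteins of the large (60S) subunit, 31 encode core proteins of the small (40S) subunit, 7 are paralogs of a core gene, 5 carry a pseudogene symbol ending in "-ps", and 1 is Rps19bp1, which encodes a protein that binds Rps19 and is not itself part of the ribosome. GENCODE lists all 90 as protein coding, and they lie on 20 chromosomes.

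The cells came from 4T1, a mouse mammary carcinoma line, here expressing the surface marker CD90.1. Female BALB/c mice received intravenous tumor-secreted factors (TSF) or control medium (CM), 3 times a week for 3 weeks, and then 25000 cancer cells by the same route. TSF is medium in which pieces of mammary tumors had been kept. The labels name 4T1 and EMT6.5 as the origin of such tumors, and supernatants of 3 tumors were pooled. For the single-cell sequencing the paper names 4T1 tumors. CM is the same medium kept without tumor. Lungs were taken at day 16, when the mice were 11 weeks old, and cells of 3 mice were pooled into 1 library per group. Both groups therefore carried the same cells, strain, sex and age, and differed in the injected medium.

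Libraries were made with a 10x Genomics 5′ kit, in which each unique molecular identifier (UMI) marks the 5′ end of 1 captured mRNA molecule. The TSF library held 139 cancer cells with 3937739 UMIs (median 26615 per cell), and the CM library held 29 cancer cells with 726849 UMIs (median 27679 per cell). The deposited gene table gives the mean CP10k, the UMIs of a gene per 10000 UMIs of a cell, averaged over the cancer cells of a library. In total, 1 CP10k stands for about 394 UMIs in the TSF cells and 72.7 UMIs in the CM cells. Because there was 1 library per group and no spread between cells was given, no difference below has an error or a test. It compares 2 libraries, and differences between mice, pools and treatments cannot be told apart. The change of a gene is log2((TSF + 1)/(CM + 1)) in CP10k. A gene is called higher or lower where its change reached 0.25 in size, a descriptive limit.

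Each ribosome holds about one copy of most of these proteins, so cells make them in matched amounts. Large subunit proteins surround the peptidyl transferase centre and the tunnel through which the new chain leaves, and small subunit proteins surround the decoding site. Most of their mRNAs start with a C followed by a run of C and T bases, the 5′ terminal oligopyrimidine (TOP) tract, through which mTOR signaling controls their translation. Here mRNA level was counted, and translation was not.

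Start regions of 8 members show how this tract looks at RefSeq start sites. Each line holds 30 bases of GRCm38 on the strand of the gene, 5′ to 3′, with 10 bases before the annotated start. In the first 6 lines, capitals mark the tract that begins at the start. In the last 2, chosen because these genes had the largest and the lowest change of all members, no tract began there and capitals mark the longest run of C and T in the window.
Rpl15 (chr14:18270967-18270996, minus): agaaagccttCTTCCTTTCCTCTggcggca
Rpl35 (chr2:39005112-39005141, minus): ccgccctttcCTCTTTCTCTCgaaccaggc
Rpl38 (chr11:114668570-114668599, plus): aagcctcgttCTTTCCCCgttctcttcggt
Rps6 (chr4:86857348-86857377, minus): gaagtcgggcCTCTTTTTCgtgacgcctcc
Rps10 (chr17:27635225-27635254, minus): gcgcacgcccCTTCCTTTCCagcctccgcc
Rps18 (chr17:33955646-33955675, minus): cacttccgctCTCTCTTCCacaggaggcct
Rpl37 (chr15:5116603-5116632, plus): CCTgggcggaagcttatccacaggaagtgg
Rpl13a (chr7:45128726-45128755, minus): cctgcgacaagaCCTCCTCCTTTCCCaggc

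A C followed by at least 4 further C or T bases stood at 14 of 77 annotated starts of 65 members, or 18.2%. The same held for 2.51% of all 32851 RefSeq starts. A start site annotated a few bases away hides the tract, as the run inside the Rpl13a window shows, so the share depends on the annotation. The 13 core genes with the tract at a start had a median change of 0.29, and the 44 with a start but no tract had a median change of 0.37. Both groups held genes with large and with small changes.

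Most ribosomal protein genes stood higher in the TSF library. Of the 80 members with a mean of at least 1 CP10k over both libraries, 71 were above 0 in change and 9 below, with a median of 0.33. Called higher were 47 (58.8%), against 19.0% of all 1527 genes of that level. Called lower were 3 members (3.75%), against 28.8% of all genes. Of all genes, 43.9% were above 0, with a median of -0.05. When values were rescaled to the UMIs of genes that are no members (hereafter the rescaling), the split over all genes moved to 26.3% higher and 25.1% lower, and with division by the median ratio of those genes to 26.5% and 22.8%. Members called higher then numbered 61 and 63, and members called lower numbered 1 and 0.

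Ribosomal protein mRNAs are abundant, so genes of like level are the closer background. Among 87 other genes of at least 10 CP10k, 29.9% were called higher, 29.9% were called lower and 50.6% were above 0, with a median of 0.02. Of 69 members of that level, 62.3% were called higher and 2.90% lower, with a median of 0.34. These other genes spread far more widely, from -2.31 to 2.02, than the members, which lay between -0.34 and 0.89. The strip plot of change by gene group shows this narrow band.

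**Figure D1:**
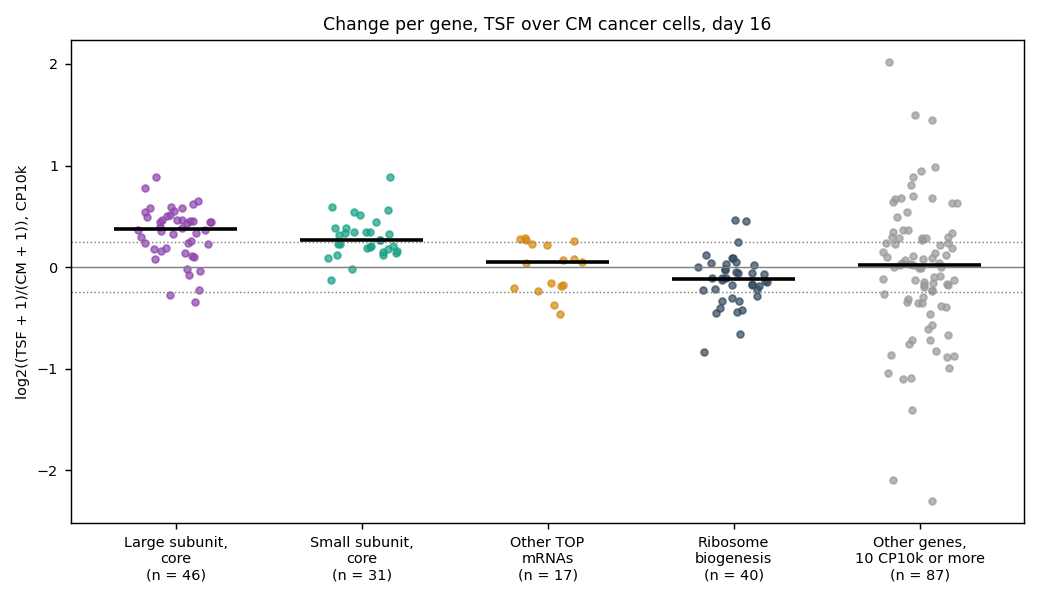
Change per gene (y axis, log2 of TSF + 1 over CM + 1, in CP10k) for core genes of each subunit, other gene groups named in the text and other genes of at least 10 CP10k (x axis). Points are genes, thick lines are medians and dotted lines mark 0.25 either side of 0. The 77 core genes lie between -0.34 and 0.89, and the ribosome biogenesis genes have a median below 0.

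Members together made up 23.9% of the UMIs of a TSF cancer cell and 18.6% of those of a CM cancer cell, on average. Their summed level was 2391 CP10k (TSF) and 1860 CP10k (CM), a ratio of 1.29. The gain of 531 CP10k was spread over many genes. The 5 largest gains, of Rpl41, Rpl37, Rplp0, Rps29 and Rps20, came to 23.0% of it. Rpl41, which encodes the smallest ribosomal protein, had the highest level of all members (122.4 CP10k in TSF and 88.3 in CM) and gave 6.43% of the gain.

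The order of levels among core genes was nearly the same in both libraries. Spearman's rho between the 2 columns was 0.943 and Pearson's r of the log2 levels was 0.960 over 77 genes, which share their libraries. The levels themselves covered a wide range, 34.7-fold from Rps18 to Rpl41 in TSF and 30.2-fold in CM. CP10k counts molecules by their 5′ ends and was not divided by length. Core genes were seen in 134 to 139 of the 139 TSF cells and in 26 to 29 of the 29 CM cells. Nearly every cell had a UMI of each, so this share could not show a change.

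**Figure D2:**
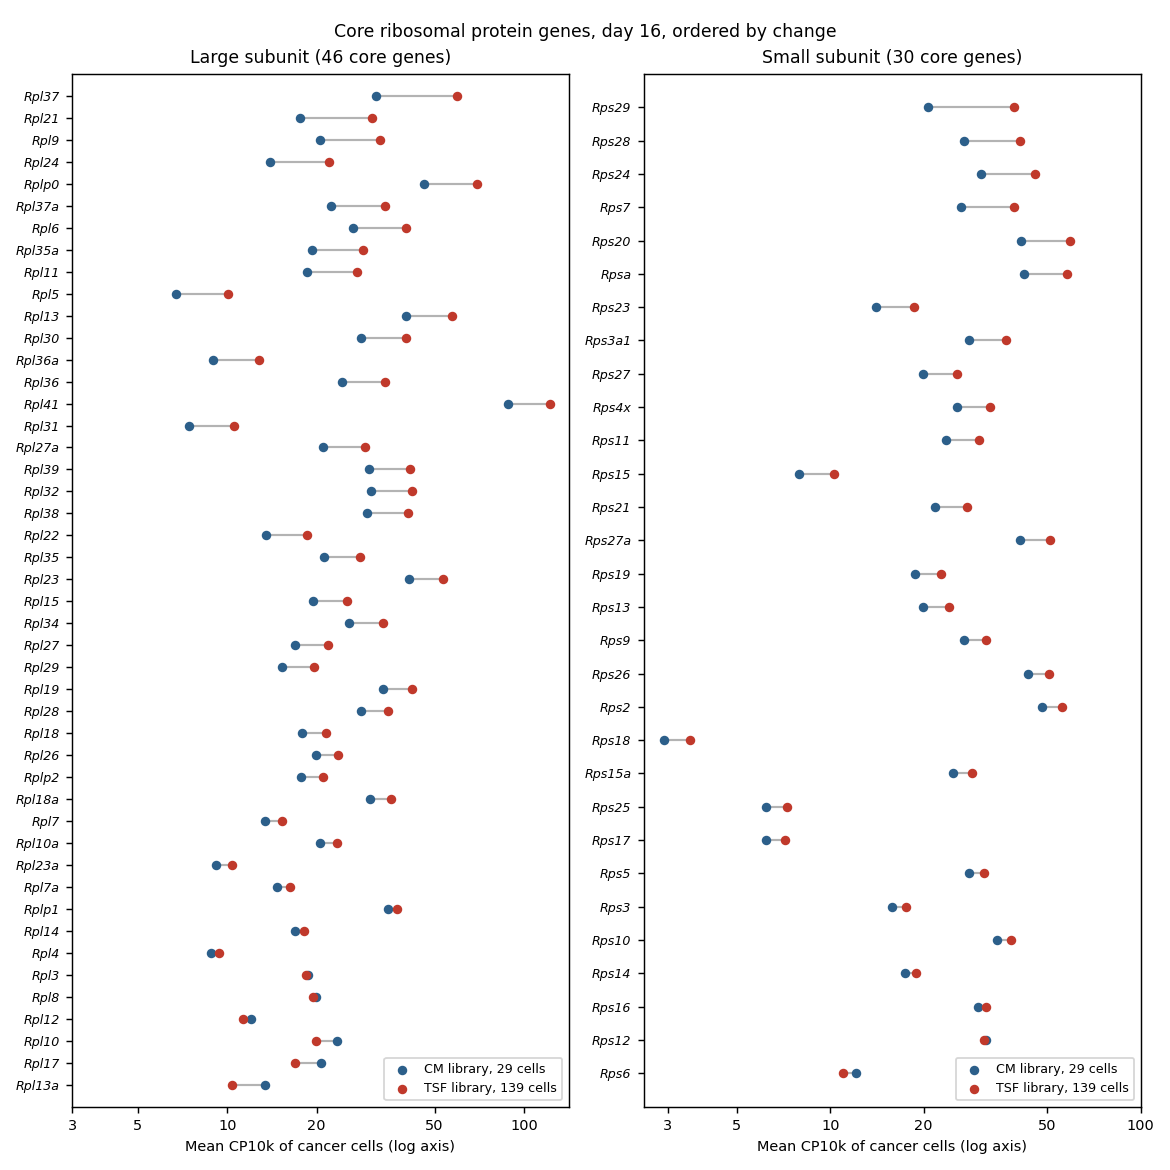
Mean CP10k (x axis, log scale) of 46 core genes of the large subunit and 30 of the small subunit in cancer cells of the CM library (blue) and the TSF library (red), 1 library each. Genes are ordered by change, and red lies to the right of blue for 68 of the 76 genes plotted.

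Large subunit genes were higher in TSF for 40 of 46 members (87.0%), with 30 (65.2%) called higher, 2 (4.35%) called lower and a median change of 0.37. Of the 87 other genes of at least 10 CP10k, 50.6% were above 0, 29.9% were called higher and 29.9% lower. The summed level of the 46 large subunit genes was 1391 CP10k in TSF and 1059 CP10k in CM. Rpl37, a zinc-binding protein of the large subunit (GRCm38 chromosome 15, 5116645 to 5119140, plus strand), had the largest change, with 59.6 CP10k in TSF and 31.8 in CM (0.89). It moved from position 14 to position 3 in the order of core levels. Rpl21 followed with 30.8 and 17.6 CP10k (0.77). Rpl9, a protein near the site where elongation factors bind, had 32.8 and 20.6 CP10k (0.65). Rpl24, which forms a bridge to the small subunit, had 22.0 and 13.9 CP10k (0.62).

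The stalk is the flexible arm that recruits elongation factors, and its genes differed among themselves. Rplp0, the scaffold of the stalk, had 69.7 CP10k in TSF and 45.9 in CM (0.59). Its partners had smaller changes. Rplp1 had 37.4 and 34.7 CP10k (0.11), and Rplp2 had 21.0 and 17.7 CP10k (0.24). Rpl12, at the base of the stalk, had 11.3 and 12.0 CP10k (-0.08).

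Rpl5 and Rpl11 bind 5S rRNA and, when ribosome assembly is disturbed, also hold Mdm2, the ligase that marks p53 for degradation. Rpl5 had 10.0 CP10k in TSF and 6.74 in CM (0.51), and Rpl11 had 27.3 and 18.5 CP10k (0.54). Both were called higher, as were 65.2% of all large subunit genes and 29.9% of the 87 other genes of at least 10 CP10k. The genes on the other side of this link had low levels. Cdkn1a, a p53 target that stops the cell cycle, had 0.352 CP10k in TSF and 0.793 in CM (-0.41), with a UMI in 45 of 139 cells (32.4%, exact Clopper-Pearson interval at 95% 24.7 to 40.8%) and 19 of 29 cells (65.5%, 45.7 to 82.1%). Mdm2 (-0.21) and Trp53, which encodes p53 (-0.18), were also at higher levels in CM, and all 3 lay below 1 CP10k. Such intervals cover counting error only. Whether p53 is functional in these cells was not tested, so the levels of Cdkn1a, Mdm2 and Trp53 do not measure its activity.

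Of 9 genes whose proteins line the exit tunnel or its mouth, 5 (55.6%) were called higher and 1 lower, with a median of 0.32. This is much as among all large subunit genes (65.2% higher, median 0.37). Called higher were 19.0% of all genes and 29.9% of the 87 other genes of at least 10 CP10k. Rpl31 was highest of the 9, with 10.6 and 7.43 CP10k (0.46). Rpl17 was lowest, with 17.0 CP10k in TSF and 20.7 in CM (-0.27).

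Large subunit genes that were lower in TSF were 6. Rpl13a, which besides its place in the ribosome takes part in a complex that silences inflammatory mRNAs (GRCm38 chromosome 7, 45125558 to 45128761, minus strand), had the lowest change of all members, with 10.4 CP10k in TSF and 13.4 in CM (-0.34). Rpl13a and Rpl17 were the only core genes called lower. Rpl10, a protein that joins the subunit late in its assembly, had 19.8 and 23.4 CP10k (-0.23). Rpl8 (19.4 and 19.9 CP10k, -0.03) and Rpl3 (18.4 and 18.7 CP10k, -0.02), both close to the peptidyl transferase centre, had nearly equal levels. Under the rescaling Rpl13a kept a change of -0.26, Rpl17 came to -0.18, and Rpl12, Rpl8 and Rpl3 turned to values between 0.01 and 0.07, so the direction of these 3 depends on the scale.

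Small subunit genes were higher in TSF for 29 of 31 members (93.5%), with 16 (51.6%) called higher, 0 called lower and a median change of 0.26. Of the 87 other genes of at least 10 CP10k, 50.6% were above 0, 29.9% were called higher and 29.9% lower. The summed level of the 31 small subunit genes was 977 CP10k in TSF and 783 CP10k in CM. Rps29, a small zinc-binding protein of the head of the subunit (GRCm38 chromosome 12, 69157722 to 69159186, minus strand), had 39.2 CP10k in TSF and 20.7 in CM (0.89). Rps28, near the path by which mRNA leaves, had 41.0 and 26.9 CP10k (0.59). Rps24 had 45.6 and 30.6 CP10k (0.56), and Rps7 had 39.0 and 26.4 CP10k (0.55). Rps20 had 59.1 and 41.2 CP10k (0.51). Rpsa, which is also known as a laminin receptor, had 57.8 and 42.2 CP10k (0.44).

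At the other end, Rps6 and Rps12 were the small subunit genes below 0. Rps6, the protein that S6 kinases phosphorylate downstream of mTOR, had 11.0 CP10k in TSF and 12.1 in CM (-0.13). Rps12 had 31.2 and 31.7 CP10k (-0.02) and turned to 0.07 under the rescaling. Rps16 (31.8 and 29.8 CP10k, 0.09) and Rps14 (19.0 and 17.4 CP10k, 0.12) were slightly higher in TSF. Rps27a, which is made as a fusion with ubiquitin, had 51.1 and 40.8 CP10k (0.32).

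Of 14 genes whose proteins form the head of the small subunit, 6 (42.9%) were called higher and 0 lower, with a median of 0.20. All small subunit genes had 51.6% called higher and a median of 0.26. Called higher were 19.0% of all genes and 29.9% of the 87 other genes of at least 10 CP10k. Of the 14, the highest was Rps29 and the lowest Rps12. A list of 9 members that are mutated in Diamond-Blackfan anemia, an inherited failure of red cell production, was also chosen, and need not be complete. Of these, 6 (66.7%) were called higher and 0 lower, with a median of 0.51. All core genes had 59.7% called higher and a median of 0.34, beside 19.0% of all genes and 29.9% of those 87 genes called higher. Rps24 was highest on the list and Rps10 lowest, with 38.2 and 34.6 CP10k (0.14).

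The medians of the subunits differed by 0.11, large minus small, beside a spread between genes of 0.26 (SD, 46 genes) and 0.20 (SD, 31 genes), so the distributions overlap broadly. The summed level of large over small subunit genes was 1.42 in TSF and 1.35 in CM.

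Paralogs did not move as 1 group. Rpl22l1 (GRCm38 chromosome 3, 28805436 to 28807424, plus strand) and Rpl22 encode proteins that can replace each other in the ribosome. Rpl22 had 18.6 CP10k in TSF and 13.5 in CM (0.43), whereas Rpl22l1 had 5.49 and 6.79 CP10k (-0.26) and was 1 of the 3 members called lower. Rpl22l1 thus stood at 29.5% of the level of Rpl22 in TSF and at 50.2% in CM, a difference between their changes of -0.70. Under the rescaling its change was -0.19 and no longer called, while its percent of Rpl22 does not depend on the scale.

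Rpl36al went the other way (GRCm38 chromosome 12, 69182731 to 69184083, minus strand). It had 11.0 CP10k in TSF and 6.08 in CM (0.76), and its X-linked relative Rpl36a had 12.8 and 8.97 CP10k (0.47). Rpl36al stood at 85.9% of Rpl36a in TSF and at 67.8% in CM. Rps27l, a p53 target, had 4.18 and 3.68 CP10k (0.14), or 16.3% of Rps27 in TSF and 18.5% in CM. Rps27 itself had 25.7 and 19.9 CP10k (0.35).

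**Figure D3:**
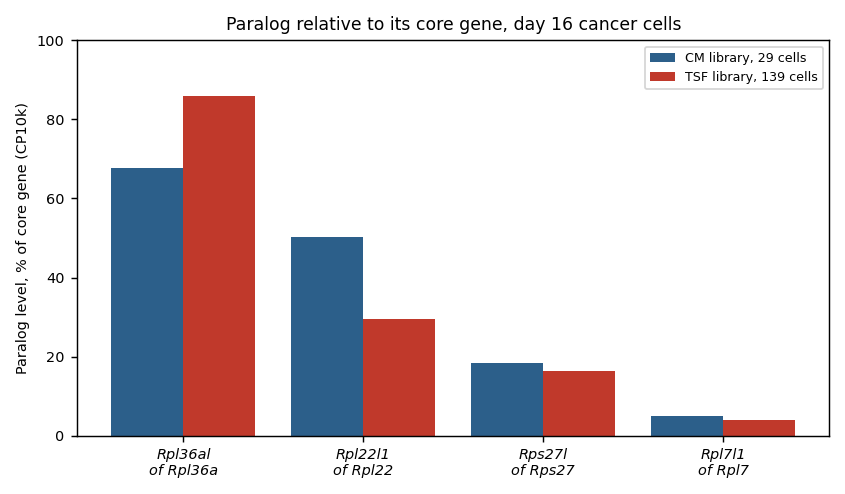
Level of 4 paralogs as a percent of the level of their core gene (y axis, ratio of mean CP10k) in cancer cells of the CM library (blue) and the TSF library (red), 1 library each. Rpl22l1 stands at 50.2% of Rpl22 in CM and 29.5% in TSF, and Rpl36al at 67.8% of Rpl36a in CM and 85.9% in TSF.

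The remaining members were scarce. Rpl7l1, whose protein acts in ribosome assembly, had 0.590 CP10k in TSF and 0.677 in CM, with a UMI in 96 of 139 cells (69.1%, interval 60.7 to 76.6%) and 20 of 29 cells (69.0%, interval 49.2 to 84.7%). Rps27rt had 0.637 and 0.377 CP10k, in 105 and 17 cells. Rps19bp1 had 0.573 and 0.550 CP10k, in 99 and 17 cells. Among symbols ending in "-ps", Rpl10-ps3 had 0.192 and 0.117 CP10k (50 and 7 cells), Rpl9-ps6 had 0.0609 and 0.0554 CP10k (23 and 3 cells) and Rpl36a-ps1 had 0.0533 and 0.0206 CP10k (16 cells and 1 cell). Rpl39l and Rpl3l, paralogs known from testis and striated muscle, and Rpl9-ps1 and Rpl36-ps4 had no UMI in 139 TSF cells and 29 CM cells, which allows a share of cells with a UMI of up to 2.16% and 10.3% (3 counts of the total) and sets no limit on the share of cells that express the gene.

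Many members have near-identical copies in the genome, between which reads can be split or lost. Of 90 members, 85 shared at least 1 stretch of 60 bases with a transcript of another GENCODE gene, at a median of 52.8% of such stretches. Within the gene table, 10 shared more than 50% with another gene: Rps27 with Rps27rt, Rpl9 with Rpl9-ps6, Rpl10 with Rpl10-ps3, Rpl36a with Rpl36a-ps1, Rplp2 with Wdr89, and Rps18 with Gm10260 and Gm11361, counted from both sides where both are members. The levels of these genes are uncertain.

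Rps18 is the clearest such case. At 3.53 CP10k in TSF and 2.92 in CM it had the lowest level of all core genes. It shared 75.4% of its stretches with its copies, of which Gm10260 (GRCm38 chromosome 13, 97760072 to 97760632, minus strand) had 20.8 and 15.9 CP10k, a UMI in 138 of 139 and 28 of 29 cells. Rps18 summed with both copies came to 24.6 CP10k in TSF and 19.0 in CM, a change of 0.36, whereas Rps18 alone had 0.21. The summed level is close to the median core gene, 28.8 CP10k in TSF and 21.1 in CM.

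Changes were larger for members with short coding sequences. Spearman's rho of change with coding length was -0.37 over 77 core genes, and -0.35 in the large and -0.27 in the small subunit. With the length of the whole mRNA it was -0.13, and with level 0.35. All 9 core genes of up to 300 nucleotides of coding sequence and at least 10 CP10k were called higher, with a median of 0.47. Of 9 genes of that length and level that are no members, 4 (44.4%) were called higher. The 22 core genes above 300 and up to 450 nucleotides had a median of 0.38. The next 17, up to 600, had a median of 0.32, and the next 18, up to 900, had 0.17.

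Other genes were compared by the same measures. Over 1429 genes of at least 1 CP10k that are no members, rho of change with coding length was -0.36, and over 85 such genes of at least 10 CP10k it was -0.28. With the length of the whole mRNA, rho was -0.34 and -0.47 in these sets, against -0.13 for core genes. Each length is that of 1 annotated transcript per gene, which need not be the one present in these cells. For Rps20 that transcript had 3706 nucleotides, of which 357 were coding, so the values for whole mRNA depend on the annotation. In bins of the same coding length, other genes of at least 10 CP10k had medians of 0.10 (9 genes), 0.07 (14 genes), 0.11 (12 genes) and 0.13 (16 genes), each below that of the core genes, but close to it in the bin that ends at 900 nucleotides. Over these bins their medians did not decline with length as those of the core genes did. The share of other genes called higher was 44.4%, 42.9%, 41.7% and 25.0% in these bins, against 100%, 68.2%, 64.7% and 38.9% of core genes. Above 900 nucleotides the core genes had 0.21 (3 genes) and the others -0.15 (34 genes). These values describe 2 libraries, and genes of one library are not independent.

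**Figure D4:**
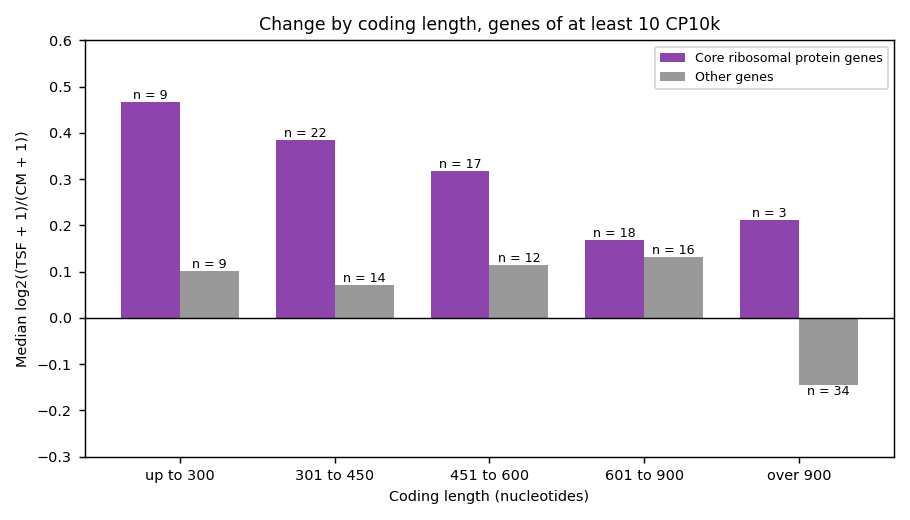
Median change (y axis, log2 of TSF + 1 over CM + 1) by coding length (x axis, nucleotides) for core ribosomal protein genes (purple) and other genes (grey) of at least 10 CP10k, with the number of genes at each bar. The median of core genes goes from 0.47 in the shortest bin to 0.17 in the bin that ends at 900 nucleotides, where that of other genes is 0.13.

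Some proteins of the ribosome have symbols that do not begin with Rpl or Rps. Fau, the fusion gene of Rps30, had 43.7 CP10k in TSF and 37.0 in CM (0.23). Rack1, a scaffold protein of the small subunit head, had 11.5 and 14.1 CP10k (-0.27), and -0.18 under the rescaling.

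Other mRNAs with a known TOP tract, mostly translation factors, were closer to 0. Of 16 with at least 1 CP10k, 4 (25.0%) were called higher and 2 (12.5%) lower, against 19.0% and 28.8% of all genes of that level, with a median of 0.06 against -0.05. The share called higher is near that of all genes. Naca, a chaperone of new chains at the ribosome, was highest with 16.4 and 13.2 CP10k (0.29). Eef2, the factor that moves the ribosome along the mRNA, was lowest with 12.1 and 17.1 CP10k (-0.46). Eef1a1, the most abundant of them, had 55.8 and 53.3 CP10k (0.07). Under the rescaling 6 were called higher and 2 lower.

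Genes for ribosome biogenesis process rRNA and assemble the subunits. Of 40 such genes, 29 had a change below 0 and 11 (27.5%) above 0, against 50.4% above 0 of all 14735 detected genes. At 1 CP10k or more, the shares above 0 were 28.6% of 14 such genes and 43.9% of all 1527 genes. Most of the 40 had a mean under 1 CP10k, where the pseudocount keeps changes small. The summed level of the 40 was 38.5 CP10k in TSF and 47.6 in CM, a ratio of 0.809. Of 14 with at least 1 CP10k, 2 (14.3%) were called higher and 6 (42.9%) lower, against 19.0% and 28.8% of all genes of that level, with a median of -0.20 against -0.05. The rescaling gave the same counts, and division by the median ratio left 5 lower. Ddx21, an RNA helicase of the nucleolus, was lowest with 0.673 and 1.98 CP10k (-0.83). Ncl, the nucleolar protein nucleolin, had 7.32 and 10.0 CP10k (-0.40), and Nop58, a core protein of box C/D snoRNPs, had 1.96 and 3.68 CP10k (-0.66). Nop10, a small protein of the H/ACA snoRNPs, was highest with 2.16 and 1.29 CP10k (0.46), and Polr1d, a subunit of RNA polymerases I and III, had 4.61 and 3.09 CP10k (0.45).

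Of 14 genes that control TOP mRNAs or ribosome production, 3 reached 1 CP10k. Eif4ebp1, a repressor of cap-dependent translation that mTOR inactivates, had 1.50 and 1.05 CP10k (0.29). Myc, which drives transcription of ribosomal protein and biogenesis genes, had 1.16 CP10k in TSF and 2.47 in CM (-0.68), with a UMI in 105 of 139 cells (75.5%, interval 67.5 to 82.4%) and 25 of 29 cells (86.2%, interval 68.3 to 96.1%). Cnbp had 3.50 and 3.92 CP10k (-0.13). Larp1, the protein that binds the TOP tract, had 0.653 and 0.724 CP10k (-0.06), and Mtor had 0.277 and 0.218 CP10k (0.07).

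The cells carried carcinoma markers in both libraries. All 7 on the list were detected in both, with sums of 31.0 CP10k in TSF and 30.7 in CM. Krt18 had 15.8 and 18.3 CP10k, Krt8 11.1 and 10.3 CP10k, Krt7 1.76 and 1.45 CP10k and Krt19 0.563 and 0.386 CP10k. The other 3 were scarce in CM. Cldn4 had 0.432 CP10k in TSF (25 cells) and 0.0449 in CM (3 cells), and Cdh1 had 0.132 (35 cells) and 0.0507 CP10k (2 cells). Epcam had 1.28 CP10k in TSF (95 of 139 cells, 68.3%, interval 59.9 to 76.0%) and 0.195 in CM (8 of 29 cells, 27.6%, interval 12.7 to 47.2%). The 10 leukocyte markers summed to 1.05 CP10k in TSF, mostly S100a9 (0.685 CP10k in 4 cells) and S100a8 (0.300 CP10k in 2 cells), and to 0.00958 CP10k in CM, with Lyz2 and Nkg7 at 0 in both. The summed levels in TSF and CM were 0.355 and 0.126 CP10k for 5 endothelial markers and 1.02 and 0.498 CP10k for 5 fibroblast markers. For 5 alveolar markers they were 0.120 and 0.113 CP10k, and Lum, Sftpc and Sftpb were at 0 in both. Among the fibroblast markers, Pdgfra had a UMI in 63 of 139 TSF cells (45.3%) and 13 of 29 CM cells (44.8%). Dcn had 0.526 CP10k in TSF (16 cells) and 0.0907 in CM (2 cells). The endothelial marker Egfl7 was seen in 44 TSF cells and 5 CM cells. After these, Pecam1 and the leukocyte marker Coro1a were seen in the most TSF cells, 9 each, and in 1 and 0 CM cells. The part of RNA or cells of other types in the changes was not tested.

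The 2 pools of cancer cells also differed in make-up. The authors' fine clusters split them into 2 groups of cells. One cluster held 85 of 139 TSF cells (61.2%, interval 52.5 to 69.3%) but 6 of 29 CM cells (20.7%, interval 7.99 to 39.7%). Its cells had fewer UMIs, with a median of 23632 in TSF and 22090 in CM, than those of the other cluster, with 34286 and 33177. Cells under 10000 UMIs were 14 of 139 in TSF and 8 of 29 in CM, and the median share of mitochondrial UMIs was 1.99% and 1.72%. The part of cluster make-up and depth in the changes of ribosomal protein genes was not tested, since the deposited means are over all cancer cells of a library. Of the cell barcodes, 31 were shared between the whole libraries of 5197 (TSF) and 3835 (CM) cells.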

How the data were processed

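With Cell Ranger the authors mapped reads to the mouse build GRCm38.p6, to which the CD90.1 sequence was added, removed ambient RNA with a customised SoupX, filtered cells on UMIs, genes and mitochondrial share, and named cancer cells from clusters and CD90.1. They took out sub-clusters of mixed markers as multiplets in the other cell types, checked with scDblFinder scores, but removed none from the cancer cells, and no doublet caller was run here. Seurat 4.1.0 is named in the submitters' processing notes. Per the deposited column descriptions, the gene table holds the mean CP10k, and how many and what percent of cells had a UMI, for the cancer cells of the libraries of day 16. The deposited cell table holds counts of UMIs and genes and the percent of mitochondrial UMIs of each cell. Correction for ambient RNA removes more from genes that are abundant in free RNA, as ribosomal protein mRNAs are, and could move their levels. The authors' fold changes, p-values, q-values, ranking scores and gene set results were not used. The 2 libraries of the cell table that match no described sample were not used, and day 11 cancer cells have no values per gene here.

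Changes were computed with a pseudocount of 1 CP10k and genes entered counts at a mean of at least 1 CP10k. The pseudocount understates changes of scarce genes. No test was run, since each group had 1 library. Alternatives were a pseudocount of 0.1, a plain ratio, no filter, a minimum of 10 CP10k, rescaling to genes that are no members (by their UMIs or median ratio) and, chosen after seeing the data, leaving out members that share over 50% of their 60-base stretches. Scripts were tested on simulated data. The members, lists and named genes were chosen with earlier results of these data known. Named genes were the 5 highest and 5 lowest core genes of each subunit, core genes at or below 0, detected paralogs and pseudogenes, Rps6, Rps27a, Rplp0, Rplp1, Rplp2, Rpsa, Rpl5, Rpl11, Fau, Rack1, and the highest and lowest of each list. Of the genes this rule takes, 2 are not reported here by name. Other genes, such as Rpl41, Rps18, Gm10260, Ncl, Nop58, Polr1d, Eef1a1, Cnbp, Larp1, Mtor, Mdm2 and Epcam, were named after their values were seen. Gene models came from GENCODE M21, matched by identifier for 23729 of 23771 genes, and start sites from RefSeq for GRCm38.p6. Scripts ran under Python 3.11.15 with pandas 2.3.3, numpy 2.4.6 and scipy 1.17.1, and plots used matplotlib 3.10.9.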

Additional observations from a re-analysis of the deposited data

How the results depend on the processing

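Members called higher numbered 48 with a pseudocount of 0.1, 49 with a plain ratio, 47 without a filter (of 86), 43 at 10 CP10k or more (of 69), and 44 of 74 without members that share over 50% of their stretches, against 47 of 80. Their median change ranged from 0.30 to 0.44 over these and the rescalings. The share of all genes called higher also moved with the setting, from 19.0% in the main one. It was 24.7% with a pseudocount of 0.1, 25.3% with a plain ratio, 3.52% without a filter and 44.2% at 10 CP10k or more. At that last level, 69 of the 156 genes were members. The share of members called higher was larger in each of these settings, but the size of the contrast varied. The sign of the median, of the difference between subunits and of all 4 paralog contrasts was kept in the alternatives run for each. The subunit difference was 0.111 to 0.112, but a common factor nearly cancels in it, so the rescaling could not test it. The ratio of sums was 1.286 to 1.287 with core genes only and with a total without mitochondrial genes. These 2 settings change little of the sum or the total, so they are no test of that ratio. Rpl12, Rpl3, Rpl8 and Rps12 changed sign under both rescalings, and none of them was called. With division by the median ratio Rpl13a came to -0.24 and no member was called lower. No paired analysis was possible because each group had 1 library at day 16, and for the same reason no library could be left out. The planned ribosomal percent per cell was not run, because no such column was among those used here. The CM values rest on 29 cells and the TSF values on 139.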

Other observations

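Several ribosomal protein genes host small nucleolar RNAs in their introns, which guide rRNA modification. In GENCODE, 30 core genes held a snoRNA gene on their own strand. These had a median change of 0.25, with 6 below 0 (Rpl13a, Rpl17, Rpl10, Rpl12, Rpl3 and Rps12), and the 47 others had a median of 0.34, with 2 below 0 (Rps6 and Rpl8). Rpl13a held 4 snoRNA genes, Rpl17 and Rps12 held 3 each. The grouping was made after the values were seen, and the signs of Rpl12, Rpl3, Rps12 and Rpl8 depend on the scale, so it is a description of 2 libraries without a test.

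In the order of core levels, Rps29 stood at position 40 in CM and 20 in TSF, Rpl21 at 55 and 36, and Rpl37 at 14 and 3. In the other direction, Rpl17 stood at 41 and 63, Rps12 at 15 and 35, and Rpl10 at 35 and 54.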
